A study of Mus musculus with 4 samples.

Results

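The genes of BMP, Nodal and TGF-beta signalling were followed in sorted mouse cardiac progenitor cells (CPCs) with and without Isl1. The 49 genes were chosen by name from the pathway: 6 BMP ligands, the BMP-processing protease gene Bmp1, 6 Nodal, activin and GDF ligands, 3 TGF-beta ligands, 6 type I and 4 type II receptors, 2 co-receptors, 9 antagonists and modulators, 5 receptor Smads, the common Smad, 2 inhibitory Smads and 4 Id target genes. All 49 were found among the 20701 gene symbols of the count table. Where a symbol had several transcript entries, which was so for 15 of them, the entry with the most reads was kept.

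The libraries came from E14 mouse embryonic stem cells (ESCs) that carry the Nkx2-5-EmGFP transgene, a green fluorescent reporter of the cardiac transcription factor gene Nkx2-5. There were 2 control libraries, from different control clones, and 2 Isl1_KO libraries, from different Isl1-/- clones made by CRISPR/Cas9, so that genotype was compared across 4 clones in all. Both groups were differentiated, sorted for GFP at day 5 and sequenced as poly(A) RNA. The study's methods describe a GFP sort at day 5 for a directed protocol, there for RNA extraction, and also for a hanging drop protocol. They do not say which of them gave these libraries. In the directed protocol BMP4 and Activin A were supplied in the medium before the cells were plated. If it was used, ligands of these same pathways also came from outside the cells at those earlier steps. For the plated cells of that protocol the methods list VEGF, bFGF and FGF10 and neither BMP4 nor Activin A. The comparison asks which transcripts of the pathway differ in CPCs that lack Isl1, a LIM-homeodomain factor that marks progenitors of the second heart field.

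BMP, Nodal, activin and TGF-beta proteins are secreted dimers that bring type I and type II receptor kinases together at the cell surface. BMP receptors phosphorylate Smad1, Smad5 and Smad9, while Nodal, activin and TGF-beta receptors phosphorylate Smad2 and Smad3, and each of these enters the nucleus with Smad4. In the early embryo Nodal and BMP4 direct the formation and patterning of mesoderm, BMPs then induce cardiac genes, and TGF-beta2 takes part in outflow tract and valve development.

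The libraries held between 8821517 and 13186109 counts over 1 transcript per gene, and a floor of 3 counts corresponded to between 0.228 and 0.340 counts-per-million (CPM). Isl1 itself was at 35.1 and 35.7 CPM in control and at 1.31 and 2.08 CPM in Isl1_KO (log2 fold change -4.39, edgeR adjusted p = 0.00277). Control replicates were close to each other, with a biological coefficient of variation of 1.29%, whereas it was 16.3% between the Isl1_KO replicates. The cells differed in cardiac markers. For their labelled type, the summed level of 6 cardiac progenitor genes was 496 and 499 CPM in control and 140 and 138 CPM in Isl1_KO. This list includes Isl1 and Nkx2-5, and Nkx2-5 fell from 21.1 and 19.8 CPM to 4.77 and 4.34 CPM (edgeR adjusted p = 0.00703). The summed level of 8 cardiomyocyte genes was 1507 and 1585 CPM in control and 53.8 and 39.2 CPM in Isl1_KO. The summed levels of 6 smooth muscle genes (2667 and 2668 CPM in control, 2254 and 759 CPM in Isl1_KO) and of 6 fibroblast genes (2174 and 2103 CPM in control, 1319 and 559 CPM in Isl1_KO) were lowest in Isl1_KO replicate 2. In such bulk samples fewer cells of a type and less RNA per cell cannot be told apart.

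A single gene of the pathway, that of TGF-beta2, passed the test, and it was lower in Isl1_KO. Of the 49 genes, 43 had enough reads to be tested, and 1 of these, Tgfb2, passed an edgeR adjusted p of 0.05, lower in Isl1_KO. None passed as higher. Over all 12715 genes tested, 2.45% passed (1.94% lower and 0.503% higher). At an unadjusted p of 0.05, 13 of the 43 genes were lower and 0 were higher, beside 12.2% lower and 11.0% higher over all genes. The median log2 fold change of the 43 genes was -0.16, beside -0.0027 over all genes, and 33 of them were below 0, beside 50.4% of all genes. Both Isl1_KO libraries lay below both control libraries for 21 genes and above them for 4 genes (Smad1, Smad2, Smad6 and Smad7), beside 29.0% and 29.1% of all genes. The number of genes called depended on the method: DESeq2 called 2 (Tgfb2 and Id2), beside 3.58% of its genes, and limma voom with a variance for each group called 6 (Tgfb2, Tgfbr1, Tdgf1, Fstl1, Id1 and Id2), beside 6.82%. The study's criteria of an absolute log2 fold change over 0.58 at an unadjusted p of 0.05, applied in DESeq2, were met by 4 (Bmp7, Tgfb2, Smad9 and Id4), beside 5.89%. Without control replicate 1 or without control replicate 2 edgeR called 0 of them, and it called 30 without Isl1_KO replicate 1 and 22 without Isl1_KO replicate 2, where 6350 and 4176 of all genes were called.

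**Figure D1:**
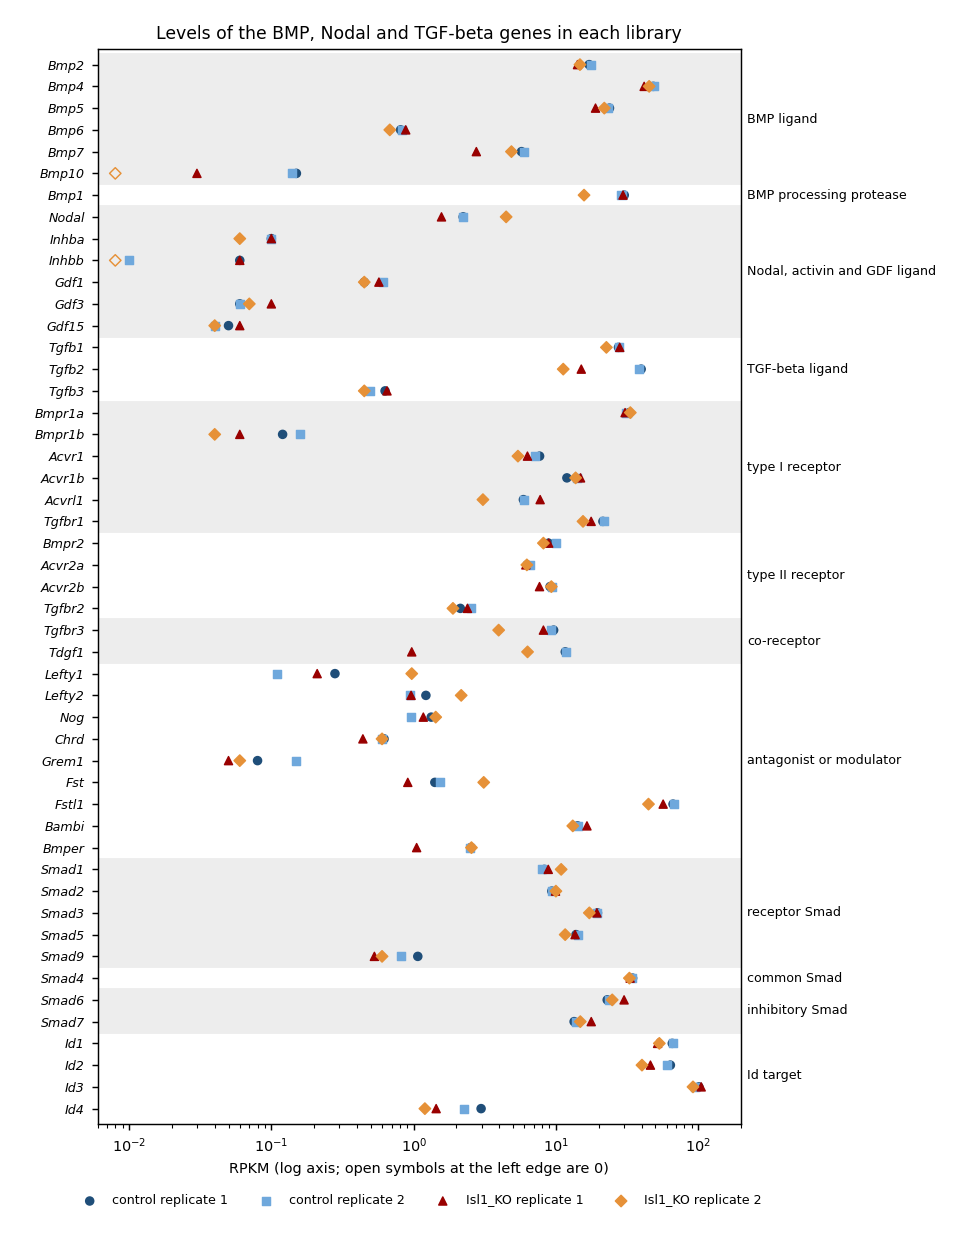
Level of each of the 49 genes in the 4 libraries, in RPKM (reads scaled to transcript length and library size) on a log axis, grouped by role, with 1 symbol per library and open symbols at the left edge for a value of 0. The levels run from 0 for Bmp10 and Inhbb in Isl1_KO replicate 2 to above 90 RPKM for Id3 in every library, and only for a few genes, Tgfb2 and Tdgf1 among them, do the Isl1_KO symbols lie far from the control symbols.

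**Figure D2:**
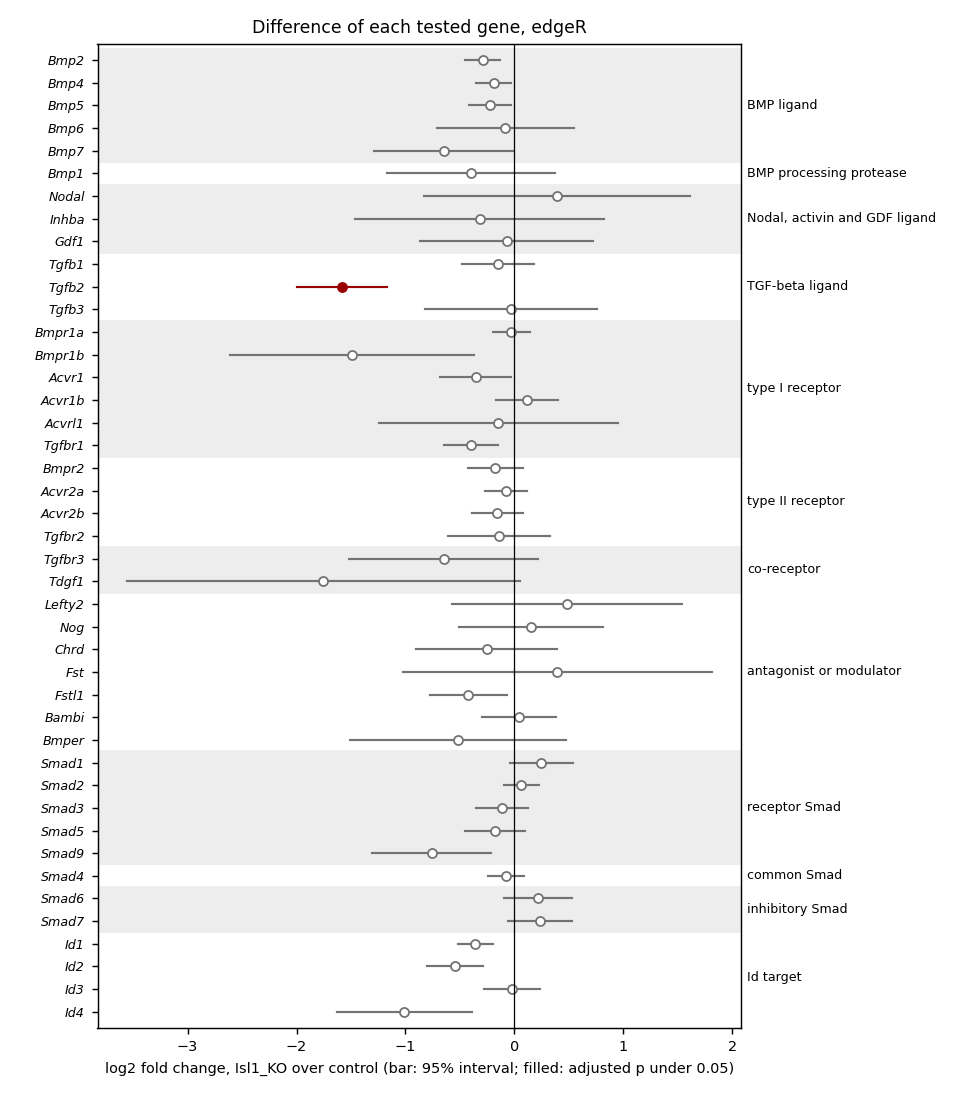
Log2 fold change of each of the 43 tested genes, Isl1_KO over control, from edgeR, with its 95% interval as a bar and a filled symbol where the adjusted p is under 0.05. The filled symbol is Tgfb2 at -1.59, and among the widest bars are those of Tdgf1 and Fst, whose Isl1_KO libraries differ.

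TGF-beta ligands bind TGFBR2 and TGFBR1 and are made as latent precursors that are held in the matrix. Tgfb2 (NM_009367, at chr1:188447065-188529871 on the minus strand of mm9) had 3173 and 3171 reads in control and 1782 and 1133 reads in the deeper Isl1_KO libraries, or 360 and 347 CPM against 137 and 98.3 CPM. Its mean fell from 354 ± 9.34 CPM (SD, n = 2) to 118 ± 27.4 CPM (SD, n = 2). Both Isl1_KO libraries were far below both control libraries, and the groups did not overlap. The level was 3.0-fold lower in Isl1_KO (log2 fold change -1.59, SE 0.163, 95% interval -2.0 to -1.17, edgeR adjusted p = 0.0185). Both transcript entries of the gene gave -1.59. The call rests on both control libraries, since the adjusted p was 0.19 without control replicate 1 (log2 fold change -1.56) and 0.137 without control replicate 2 (-1.61), while over the alternatives with all 4 libraries it ranged from 1.35e-16 with DESeq2 to 0.0242 with at least 10 counts required in every library. Of the 7 cardiomyocyte marker genes tested, 7 passed as lower in the same comparison, beside 1.94% of all genes. None of them was at 0 reads in any library. Of the 6 smooth muscle and 6 fibroblast markers 0 passed in edgeR, beside 2.45% of all genes, though their summed levels were also lowest in Isl1_KO replicate 2. At an unadjusted p of 0.05, 1 and 4 of them were lower, beside 12.2% of all genes. Limma voom called 1 and 4, beside 6.82%. The part of all these marker genes in the Tgfb2 result was not tested.

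The other TGF-beta genes did not pass the test. Tgfb1 was at 106 and 107 CPM in control and at 108 and 83.8 CPM in Isl1_KO. These groups overlapped, with a log2 fold change of -0.15 (95% interval -0.48 to 0.18, edgeR adjusted p = 0.541). Tgfb3 was low, at 2.60 to 3.92 CPM over the 4 libraries, with an interval of -0.82 to 0.76. Per length, the makeup of the family therefore differed. Tgfb2 made up 58.5% and 57.5% of the summed RPKM of the 3 genes in control and 34.4% and 32.8% in Isl1_KO, and Tgfb1 went from 40.5% and 41.8% to 64.1% and 65.9%.

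The promoter of Tgfb2 is shown because it is the gene that passed the test. The 250 bases before its start site (RefSeq, GRCm38.p6, chr1:186705990-186706239, minus strand, printed 5′ to 3′ along the gene) carry, in capitals, each match on either strand to CAGAC, the letters of a Smad-binding element (GTCTG on the other strand).
Tgfb2: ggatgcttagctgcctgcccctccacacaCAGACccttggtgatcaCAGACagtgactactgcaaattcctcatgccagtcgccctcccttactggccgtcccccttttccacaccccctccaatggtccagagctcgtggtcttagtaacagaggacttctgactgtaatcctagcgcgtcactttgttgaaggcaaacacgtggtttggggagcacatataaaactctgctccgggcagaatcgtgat
There were 2 such matches, beginning 221 and 204 bases before the start, and 42.2% of all 32851 promoter windows of this length hold at least 1. TAAT or ATTA, the core letters that homeodomain proteins bind, occurred once (83 bases before the start), as in 54.9% of all windows at least once. A match is a description of the sequence and not evidence of binding.

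BMP ligands bind BMP type I receptors and were among the better expressed ligands. Per length, Bmp4 was the most abundant at 41.7 to 49.01 RPKM over the 4 libraries, followed by Bmp5 at 19.0 to 23.8 RPKM, Bmp2 at 14.2 to 17.6 RPKM, Bmp7 at 2.76 to 5.93 RPKM and Bmp6 at 0.68 to 0.88 RPKM. None of the ranges of neighbours in this order overlapped. Bmp10, a ligand of trabecular myocardium, had 3 and 3 reads in control and 1 and 0 in Isl1_KO, at or below the floor. All 5 tested ligands had a log2 fold change below 0, and 4 of them had both Isl1_KO libraries below both control libraries (beside 29.0% of all genes) and an unadjusted p under 0.05 (beside 12.2% that were lower), but 0 passed after adjustment in edgeR, DESeq2 or limma voom.

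Bmp2, which is needed for cardiac mesoderm and cushion formation, was at 108 and 111 CPM in control and at 89.9 and 89.8 CPM in Isl1_KO. The replicates of each group were nearly equal and the groups did not overlap (log2 fold change -0.29, SE 0.0632, edgeR adjusted p = 0.0876). Bmp4, which is required for mesoderm, was at 176 and 178 CPM in control and at 152 and 159 CPM in Isl1_KO. This difference was small (log2 fold change -0.19, SE 0.0635, edgeR adjusted p = 0.172). Bmp5 was at 161 and 156 CPM in control and at 129 and 143 CPM in Isl1_KO (log2 fold change -0.22, SE 0.0773, edgeR adjusted p = 0.179). Bmp7 was at 37.2 and 38.5 CPM in control, and at 18.0 CPM in Isl1_KO replicate 1 and 30.5 CPM in replicate 2. Its estimate was larger but less certain, because the Isl1_KO libraries lay 1.69-fold apart (log2 fold change -0.65, SE 0.252, edgeR adjusted p = 0.21). The shares of the ligands in the family's summed RPKM moved little, Bmp4 making up 50.4% and 50.7% in control and 53.1% and 51.7% in Isl1_KO, while Bmp7 took 5.97% and 6.14% in control and 3.51% and 5.57% in Isl1_KO. Bmp1, which encodes a metalloprotease that cleaves chordin and procollagens, was at 238 and 227 CPM in control, at 234 CPM in Isl1_KO replicate 1 and at 119 CPM in replicate 2. Only the last library stood apart, and the groups overlapped (edgeR adjusted p = 0.477).

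**Figure D3:**
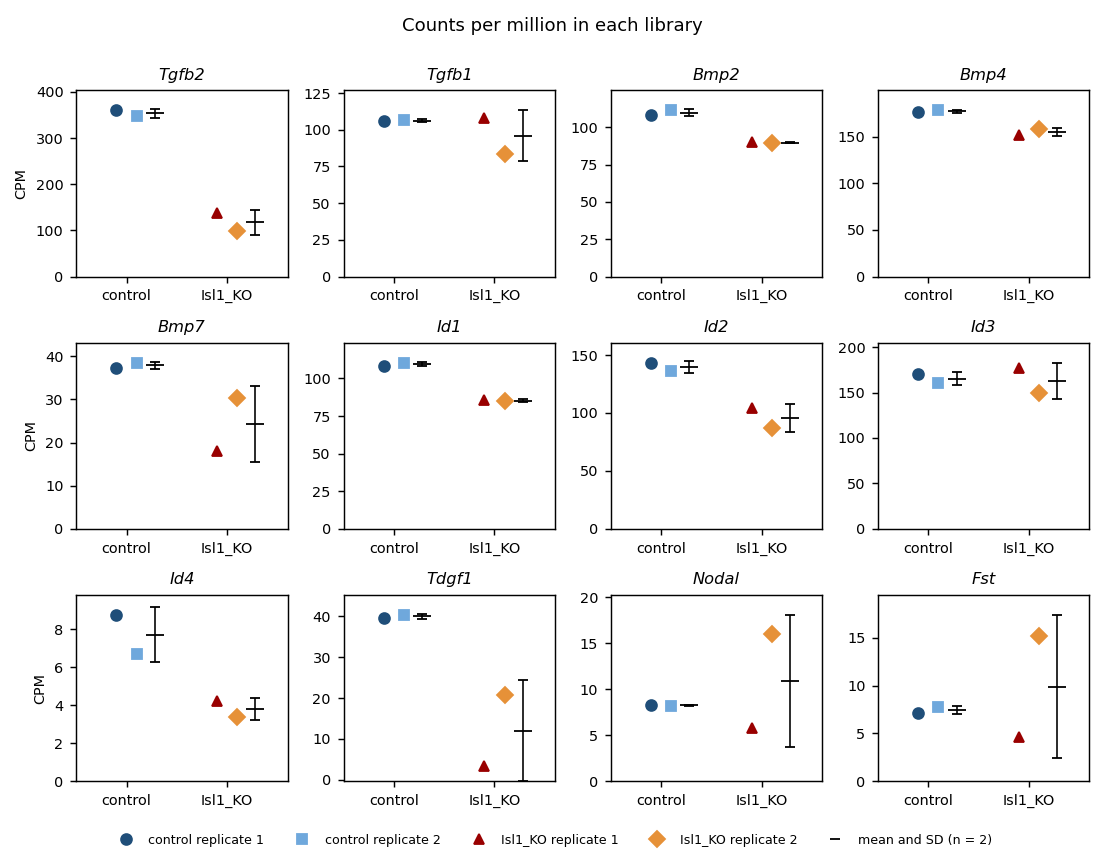
CPM of 12 genes in each library, with the mean and SD of the 2 libraries of a group drawn beside them and a linear axis in every panel. Tgfb2, Bmp2, Bmp4, Bmp7, Id1, Id2, Id4 and Tdgf1 have both Isl1_KO symbols below both control symbols, while the Isl1_KO symbols of Nodal and Fst lie on opposite sides of control and those of Tgfb1 and Id3 overlap with it.

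Nodal, activin and GDF ligands were expressed at low levels. Nodal, which patterns mesendoderm and the left-right axis, was at 8.29 and 8.21 CPM in control, at 5.84 CPM in Isl1_KO replicate 1 and at 16.0 CPM in replicate 2. The clones without Isl1 thus lay on opposite sides of control, 2.73-fold apart (exact binomial 95% interval 2.08 to 3.62, counting error only), and no difference between the groups was detectable (log2 fold change 0.39, 95% interval -0.83 to 1.61, edgeR adjusted p = 0.665). Inhba, an activin subunit gene, had 7 to 15 reads per library, and Gdf1, a Nodal partner whose exons overlap those of Lass1 and Upf1, had 19 to 36 reads. Neither passed the test (edgeR adjusted p = 0.713 and 0.914). Inhbb had 4, 1, 6 and 0 reads, Gdf3 2, 2, 5 and 3 reads and Gdf15 1, 1, 2 and 1 reads, in the order control replicates 1 and 2 and Isl1_KO replicates 1 and 2, too few to be tested.

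The co-receptors were both lower in each Isl1_KO library than in the control libraries, but by unequal amounts. Tdgf1 encodes Cripto, the EGF-CFC protein through which Nodal binds its receptors. It was at 39.6 and 40.4 CPM in control, at 3.31 CPM in Isl1_KO replicate 1 and at 20.7 CPM in replicate 2. The log2 fold change was -1.75 (SE 0.711, 95% interval -3.56 to 0.05, edgeR adjusted p = 0.223), and the Isl1_KO libraries differed 6.27-fold between themselves (exact binomial 95% interval 4.52 to 8.89). Of the alternatives with all 4 libraries, only limma voom with a variance for each group called it (adjusted p = 0.0406). Tgfbr3 encodes betaglycan, which presents TGF-beta2 to its receptors, and it was at 103 and 99.2 CPM in control, at 87.7 CPM in Isl1_KO replicate 1 and at 40.9 CPM in replicate 2 (log2 fold change -0.65, SE 0.341, edgeR adjusted p = 0.318). Here replicate 2 was the lower of the pair, by 2.15-fold (exact binomial 95% interval 1.93 to 2.39).

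Receptor genes were expressed in both groups, and 0 of the 10 passed the adjusted edgeR test, beside 2.45% of all genes. At an unadjusted p of 0.05, 3 were lower, beside 12.2% of all genes. DESeq2 called 0 and limma voom 1, beside 3.58% and 6.82%. Of the type I receptors, Bmpr1a, the main BMP receptor of these cells at 30.6 to 33.4 RPKM, had a log2 fold change of -0.03 with an interval of -0.20 to 0.14. Tgfbr1, the TGF-beta type I receptor, was at 218 and 220 CPM in control and at 180 and 152 CPM in Isl1_KO. Its libraries did not overlap (log2 fold change -0.40, SE 0.0978, edgeR adjusted p = 0.108), and limma voom with a variance for each group called it (adjusted p = 0.0354). Acvr1, which encodes a BMP type I receptor, was at 44.7 and 41.4 CPM in control and at 36.8 and 30.4 CPM in Isl1_KO (log2 fold change -0.36, SE 0.129, edgeR adjusted p = 0.192). Bmpr1b was close to the floor, with 10 and 13 reads in control and 7 and 4 reads in Isl1_KO (log2 fold change -1.49, SE 0.441, edgeR adjusted p = 0.141). Acvrl1, the ALK1 receptor of endothelial cells, was at 38.0 and 38.6 CPM in control, at 49.96 CPM in Isl1_KO replicate 1 and at 19.0 CPM in replicate 2. The Isl1_KO libraries lay on either side of control, 2.63-fold apart (exact binomial 95% interval 2.25 to 3.08). Of the 8 endothelial marker genes, 4 were likewise at least 1.5-fold lower in replicate 2 than in replicate 1, beside 7.44% of all genes. Cdh5 went from 30.7 to 16.5 CPM and Tek from 33.9 to 16.1 CPM. Tie1 went from 7.84 to 4.77 CPM and Esam from 4.61 to 1.74 CPM, and Emcn was at 0 in both. The summed level of all 8 genes was 434 and 434 CPM in control and 392 and 420 CPM in Isl1_KO. The largest part came from Kdr, which went from 186 to 278 CPM between the Isl1_KO libraries. The part of the endothelial genes in the Acvrl1 values was not tested. Acvr1b, the activin and Nodal type I receptor, had a log2 fold change of 0.12 with an interval of -0.17 to 0.40. Of the type II receptors, Bmpr2 (-0.17), Acvr2a (-0.08), Acvr2b (-0.16) and Tgfbr2 (-0.14) all had log2 fold changes just below 0, with edgeR adjusted p between 0.354 and 0.682, and exons of Acvr2a overlap those of Orc4 on the other strand.

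Antagonists and modulators were mixed in direction, with 3 of 7 tested genes below 0 and 4 above 0. The adjusted edgeR test was passed by 0, beside 2.45% of all genes. At an unadjusted p of 0.05, 1 was lower, beside 12.2% of all genes. DESeq2 called 0 and limma voom 1, beside 3.58% and 6.82%. Fstl1, a follistatin-like glycoprotein that binds BMP ligands, was the most abundant at 44.8 to 67.5 RPKM. It was at 425 and 430 CPM in control and at 363 and 275 CPM in Isl1_KO. The groups did not overlap (log2 fold change -0.42, SE 0.138, edgeR adjusted p = 0.166), and limma voom with a variance for each group called it (adjusted p = 0.046). Fst encodes follistatin, which binds activin, and it was at 7.15 and 7.77 CPM in control, at 4.61 CPM in Isl1_KO replicate 1 and at 15.2 CPM in replicate 2. Lefty2, a feedback inhibitor and transcriptional target of Nodal, was at 5.34 and 4.16 CPM in control, at 4.23 CPM in Isl1_KO replicate 1 and at 9.11 CPM in replicate 2. Both were highest in Isl1_KO replicate 2, 3.29-fold (exact binomial 95% interval 2.44 to 4.49) and 2.15-fold (1.54 to 3.04) above replicate 1. Its neighbour Lefty1 had 7 and 3 reads in control, 8 reads in Isl1_KO replicate 1 and 31 in replicate 2 and was not tested. Bmper, a BMP-binding protein gene of endothelial development, was instead low in 1 library, at 16.9 and 16.6 CPM in control, 7.07 CPM in Isl1_KO replicate 1 and 16.5 CPM in replicate 2. The BMP traps Nog (3.28 to 4.68 CPM) and Chrd (2.61 to 3.63 CPM) were low in every library, as was Grem1 with 2 to 4 reads, and exons of Chrd overlap those of Thpo. Bambi, a pseudoreceptor gene induced by BMP and TGF-beta, had a log2 fold change of 0.04 with an interval of -0.30 to 0.39.

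The Smad genes carry the signal to the nucleus, and 0 of the 8 passed the adjusted edgeR test, beside 2.45% of all genes. At an unadjusted p of 0.05, 1 was lower, beside 12.2% of all genes. DESeq2 and limma voom called 0, beside 3.58% and 6.82%. The receptor Smads of the TGF-beta and Nodal branch, Smad2 and Smad3, had log2 fold changes of 0.06 (interval -0.09 to 0.22) and -0.11 (interval -0.35 to 0.13), and the common Smad4 had -0.08 (interval -0.25 to 0.09). Of the BMP branch, Smad5 was at 131 to 167 CPM and Smad1 at 43.0 to 56.5 CPM, with Smad1 higher in both Isl1_KO libraries (log2 fold change 0.25, edgeR adjusted p = 0.269). Smad9 was at 10.2 and 7.77 CPM in control and at 5.07 and 5.55 CPM in Isl1_KO. It made up between 2.30% and 4.61% of the summed RPKM of the BMP receptor Smads over the 4 libraries (log2 fold change -0.76, SE 0.215, edgeR adjusted p = 0.133). Smad6 and Smad7, inhibitory Smads that are themselves induced by the pathway, were at 121 and 125 CPM and at 106 and 109 CPM in control, and at 159 and 126 CPM and at 140 and 112 CPM in Isl1_KO. Both Isl1_KO libraries were above both control libraries, in replicate 2 by little, and neither gene passed (edgeR adjusted p = 0.345 and 0.302).

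Id genes encode helix-loop-helix proteins without a DNA-binding domain and are direct transcriptional targets of BMP-activated Smads. Of the 4 genes, 3 had both Isl1_KO libraries below both control libraries, beside 29.0% of all genes, and 3 were lower at an unadjusted p of 0.05, beside 12.2%. After adjustment 0 passed in edgeR, 1 in DESeq2 and 2 in limma voom, beside 2.45%, 3.58% and 6.82%. Id1 was at 109 and 110 CPM in control and at 85.8 and 84.8 CPM in Isl1_KO. The replicates were close to each other in both groups (log2 fold change -0.36, SE 0.0628, edgeR adjusted p = 0.0627), and limma voom with a variance for each group called it (adjusted p = 0.0393). Id2 was at 143 and 136 CPM in control and at 104 and 87.2 CPM in Isl1_KO. The difference lay near the threshold (log2 fold change -0.55, SE 0.102, edgeR adjusted p = 0.07), and it passed in DESeq2 (adjusted p = 0.0155), in limma voom (0.0211) and in edgeR without a filter on low counts (0.0493). Id4 was at 8.74 and 6.67 CPM in control and at 4.23 and 3.38 CPM in Isl1_KO (log2 fold change -1.01, SE 0.243, edgeR adjusted p = 0.102). Id3, the most abundant per length at 92.0 to 105 RPKM, was at 170 and 160 CPM in control and at 177 and 149 CPM in Isl1_KO. Its groups overlapped and its log2 fold change was -0.02 with an interval of -0.28 to 0.24. Id3 therefore took a larger share of the family's summed RPKM, 43.3% and 42.4% in control and 51.3% and 49.2% in Isl1_KO.

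The promoters of Id2, Id3 and Id4 are shown because these genes, though all Id genes, differed in their values. Id1, whose Isl1_KO libraries also lay below both control libraries, had no promoter window. The windows are the 250 bases before the start sites (RefSeq, GRCm38.p6, 5′ to 3′ along each gene), at chr12:25096093-25096342 on the minus strand for Id2, chr4:136143572-136143821 on the plus strand for Id3 and chr13:48260866-48261115 on the plus strand for Id4. Capitals mark GGCGCC, the palindromic GC-rich letters bound by BMP Smads, and CAGAC or GTCTG.
Id2: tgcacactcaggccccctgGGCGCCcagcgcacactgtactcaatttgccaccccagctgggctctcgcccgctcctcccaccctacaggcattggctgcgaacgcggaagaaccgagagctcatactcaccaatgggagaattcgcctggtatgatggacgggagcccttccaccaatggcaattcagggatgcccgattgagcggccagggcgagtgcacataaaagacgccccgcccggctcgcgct
Id3: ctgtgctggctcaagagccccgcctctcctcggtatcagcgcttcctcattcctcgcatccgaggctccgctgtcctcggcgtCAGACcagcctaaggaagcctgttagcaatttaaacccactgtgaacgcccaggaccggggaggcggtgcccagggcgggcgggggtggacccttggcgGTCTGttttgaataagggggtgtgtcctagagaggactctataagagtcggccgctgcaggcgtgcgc
Id4: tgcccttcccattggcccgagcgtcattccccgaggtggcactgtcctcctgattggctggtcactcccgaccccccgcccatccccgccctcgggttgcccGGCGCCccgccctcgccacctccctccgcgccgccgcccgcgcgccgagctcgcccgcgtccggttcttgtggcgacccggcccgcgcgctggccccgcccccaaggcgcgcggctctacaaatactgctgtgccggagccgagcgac
GGCGCC occurred once in Id2 (231 bases before the start) and once in Id4 (148 bases before the start), as in 9.59% of all windows at least once. The Id3 window held CAGAC (167 bases before the start) and GTCTG (68 bases before the start) but no GGCGCC, and windows further from the start were not searched. Base composition was not taken into account, and a match is not evidence of binding. A link between these letters and the differences in expression was not tested.

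**Figure D4:**
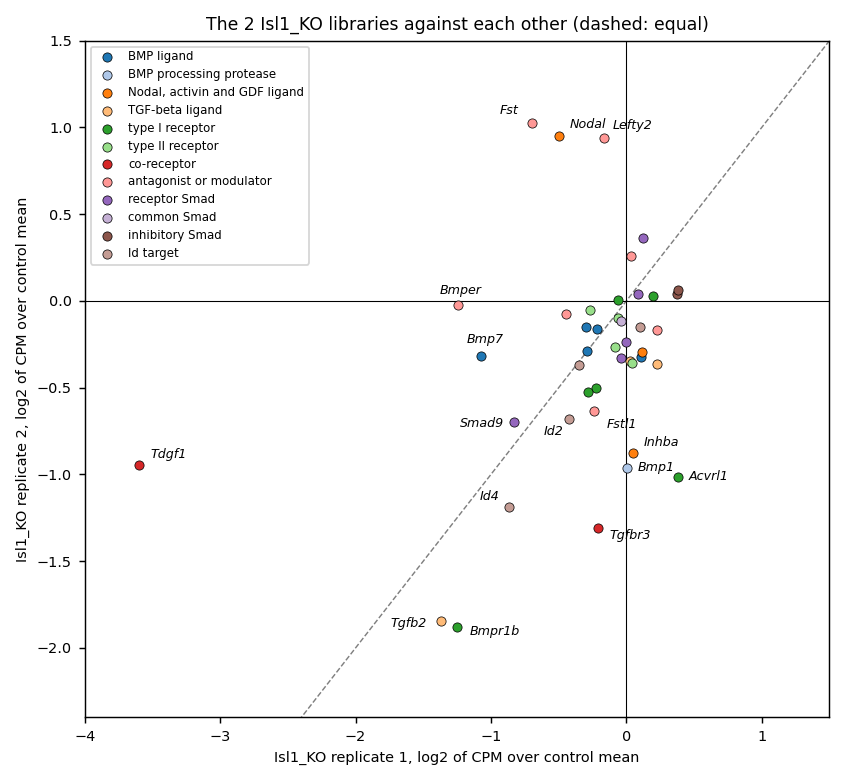
Log2 of the CPM of each Isl1_KO library over the control mean for the 43 tested genes, with replicate 1 on the horizontal and replicate 2 on the vertical axis, colours for roles and a dashed line where both are equal. Tgfb2, Bmpr1b, Id4, Smad9 and Id2 lie below 0 on both axes near the dashed line, while Nodal, Fst and Lefty2 lie above 0 in replicate 2 and below 0 in replicate 1.

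The Isl1_KO clones differed from each other in several genes of the pathway. Isl1_KO replicate 2 was at least 1.5-fold from replicate 1 (after adding 0.5 CPM) for 9 of the 43 genes, beside 11.7% of all genes, and the control replicates were that far apart for 0 of them, beside 2.21% of all genes. The level was higher in replicate 2 for 6 genes (Bmp7, Nodal, Tdgf1, Lefty2, Fst and Bmper), beside 4.27% of all genes, and lower for 3 (Bmp1, Acvrl1 and Tgfbr3), beside 7.44%. Of those that act in the Nodal and activin branch, Nodal and the activin antagonist gene Fst had their control levels between the Isl1_KO levels, the Nodal inhibitor gene Lefty2 was at the control level in replicate 1, and the co-receptor gene Tdgf1 was below control in both. These are differences between single libraries and have no replicate check.

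Other genes of the pathway were read from the same fit. Of 59 listed, 40 were tested, and 2 passed as higher and 1 as lower, beside 0.503% and 1.94% of all genes. Their median log2 fold change was -0.12. Foxh1, which encodes the forkhead partner of Smad2 and Smad3 in Nodal signalling, was at 100 and 93.8 CPM in control and at 150 and 169 CPM in Isl1_KO. It rose 1.64-fold (log2 fold change 0.71, SE 0.0875, edgeR adjusted p = 0.0306). Ppm1a, a phosphatase gene whose product removes phosphate from receptor Smads, was at 155 and 147 CPM in control and at 206 and 209 CPM in Isl1_KO. It rose 1.38-fold (log2 fold change 0.46, SE 0.0657, edgeR adjusted p = 0.0398). Nedd4l, a ubiquitin ligase gene whose product limits activated Smad2 and Smad3, was at 31.7 and 28.7 CPM in control and at 16.5 and 15.5 CPM in Isl1_KO. It fell 1.88-fold (log2 fold change -0.91, SE 0.118, edgeR adjusted p = 0.0337). None of the 3 was called without control replicate 1 or without control replicate 2.

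The next 5 by p did not pass the adjusted edgeR test, and 4 of them had estimates below 0. These were Kcp (-1.02 on the log2 scale, adjusted p = 0.0715), which encodes a chordin-like BMP modulator, Cfc1 (-0.61, adjusted p = 0.0779), the Cripto relative, Ltbp1 (-1.12, adjusted p = 0.0835), which holds latent TGF-beta in the matrix, and Furin (-0.47, adjusted p = 0.107), whose product cleaves the ligand precursors. The other was Amhr2 (1.67, adjusted p = 0.133), which encodes the type II receptor of anti-Müllerian hormone and had 9 and 9 reads in control and 28 and 50 reads in Isl1_KO. Ltbp1 was at 137 and 137 CPM in control and 78.4 and 46.8 CPM in Isl1_KO. DESeq2 called Kcp and Ltbp1 in addition to the 3 genes above, beside its 3.58% over all genes.

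Response genes of the pathways are commonly read as signs of signalling. In edgeR 0 of 25 tested passed the adjusted edgeR test, and 5 were higher and 3 lower at an unadjusted p of 0.05, beside 11.0% and 12.2% of all genes. DESeq2 called 5 and limma voom 7 of them, beside 3.58% and 6.82% of all genes. The branches differed in their summed levels. The 10 BMP response genes summed to 399 and 377 CPM in control and to 501 and 665 CPM in Isl1_KO. Tbx3 had the largest part in these sums, at 122 and 105 CPM in control and at 159 and 261 CPM in Isl1_KO. Msx2, a homeobox gene of the same list, was at 79.1 and 80.5 CPM in control and at 118 and 147 CPM in Isl1_KO (log2 fold change 0.73, SE 0.119, edgeR adjusted p = 0.0556). Gata2, which is also a gene of blood progenitors, was at 26.9 and 26.7 CPM in control and at 45.5 and 76.3 CPM in Isl1_KO (log2 fold change 1.18, SE 0.258, edgeR adjusted p = 0.0876). Tbx3 (0.89, adjusted p = 0.127) and Msx1 (0.28, adjusted p = 0.131) had estimates in the same direction, opposite to that of Id1, Id2 and Id4. Msx2, Gata2 and Tbx3 passed in DESeq2 (adjusted p = 0.000639, 0.000419 and 0.00394) and in limma voom (0.00922, 0.0178 and 0.0374). Of the 9 tested genes of this list 5 had both Isl1_KO libraries above both control libraries, and 3 had both below, beside 29.1% and 29.0% of all genes. Those below were Atoh8 (-0.57), Tbx2 (-0.21) and Hey1 (-0.22), as was so for the Id genes other than Id3. Blood marker genes had estimates in both directions. Of the 7 tested, 1 (Runx1) passed the edgeR test, as higher, beside 0.503% of all genes. At an unadjusted p of 0.05, 4 were higher and 1 was lower, beside 11.0% and 12.2% of all genes. Runx1 (log2 fold change 0.57), Gata1 (0.85), Itga2b (0.75) and Tal1 (0.93) were above control in both Isl1_KO libraries. Limma voom called 6, beside 6.82% of all genes, namely these and, as lower, both globin genes that follow. The embryonic globin genes Hbb-bh1 (log2 fold change -1.51) and Hba-x (-2.13) were below control in both Isl1_KO libraries. The summed level of the 8 listed genes was 515 and 527 CPM in control and 399 and 284 CPM in Isl1_KO. Hbb-bh1 has the largest part in the control sums, at 284 and 293 CPM, and was at 160 and 42.0 CPM in Isl1_KO. The part of the blood marker genes in the values of the BMP response genes was not tested.

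The 7 Nodal and activin response genes summed to 138 and 133 CPM in control, to 140 CPM in Isl1_KO replicate 1 and to 256 CPM in replicate 2. Eomes, a T-box gene of nascent mesoderm and endoderm, was at 13.7 and 12.1 CPM in control, at 18.2 CPM in Isl1_KO replicate 1 and at 88.1 CPM in replicate 2. Mixl1, a homeobox gene of the primitive streak, was at 3.52 and 4.6 CPM in control, at 4.38 CPM in Isl1_KO replicate 1 and at 24.7 CPM in replicate 2. The high level of replicate 2 was thus shared by 5 of the 7 genes, which were at least 1.5-fold above replicate 1, beside 4.27% of all genes. Isl1_KO replicate 2 was also the library in which Nodal, Lefty2 and Fst were highest. Of the 6 pluripotency marker genes tested, 3 were also at least 1.5-fold higher in replicate 2 than in replicate 1, beside 4.27% of all genes. The adjusted edgeR test was passed by 0 of them, beside 2.45% of all genes. Pou5f1 was at 5.45 and 5.91 CPM in control, at 6.0 CPM in Isl1_KO replicate 1 and at 14.7 CPM in replicate 2. Nanog went from 2.00 to 4.77 CPM and Sox2 from 15.5 to 26.7 CPM between Isl1_KO replicates 1 and 2, while Klf4, which had the highest CPM of the list, went from 50.5 to 33.8 CPM. The summed level of all 8 genes, in which Klf4 has the largest part, was 93.4 and 90.4 CPM in control and 78.1 and 85.7 CPM in Isl1_KO. Their part in the values of replicate 2 was not tested.

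The 9 TGF-beta response genes summed to 9170 and 9180 CPM in control and to 7314 and 5226 CPM in Isl1_KO, and all 9 log2 fold changes were below 0. While edgeR called 0 of them, DESeq2 called 2, Fn1 (adjusted p = 0.0202) and Thbs1 (0.0161), beside 3.58% of all genes. Limma voom called 4, Fn1 (adjusted p = 0.0113), Thbs1 (0.0288), Col1a1 (0.0203) and Tgfbi (0.0413), beside 6.82%. The list is dominated by Fn1, the fibronectin gene, at 4895 and 4934 CPM in control and 3845 and 3844 CPM in Isl1_KO (log2 fold change -0.35, SE 0.0673, edgeR adjusted p = 0.0712). In the remaining genes replicate 2 was the lower library. It was at least 1.5-fold below replicate 1 for 8 of the 9 genes, beside 7.44% of all genes. Acta2 and Tagln are also smooth muscle markers and Col1a1 is a fibroblast marker. The summed levels of those marker lists moved the same way, but they count these same genes and are no separate observation. Acta2 was at 1638 and 1636 CPM in control and at 1137 and 276 CPM in Isl1_KO. Col1a1 was at 925 and 910 CPM in control and at 603 and 328 CPM in Isl1_KO. The part of the marker genes in the result was not tested.

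**Figure D5:**
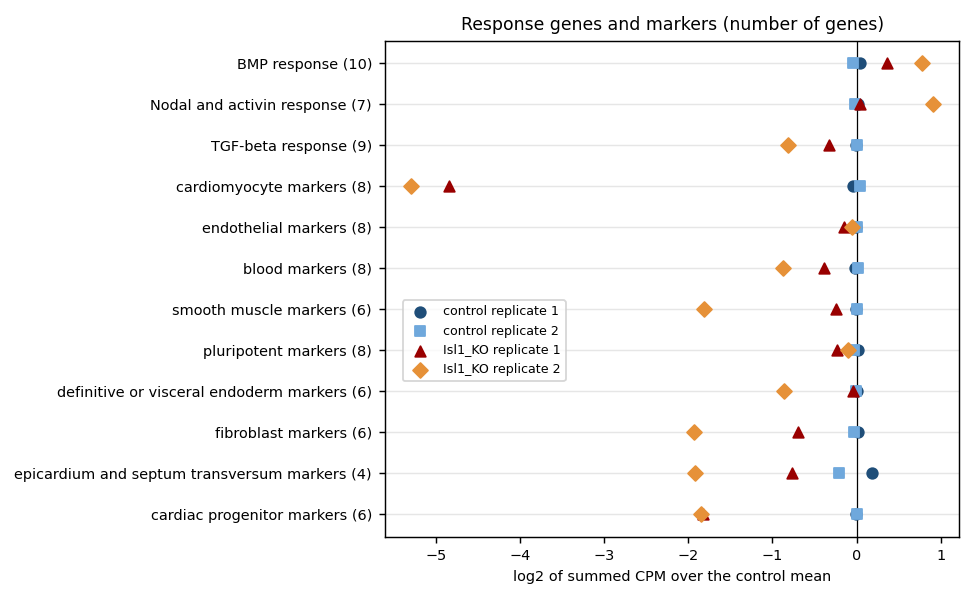
Summed CPM of each list of response genes and cell type markers in each library, as the log2 of its ratio to the control mean, with the number of genes of the list in parentheses. Cardiomyocyte markers lie furthest below control in both Isl1_KO libraries. The Nodal and activin response list is above control in Isl1_KO replicate 2 while replicate 1 is at the control level. The smooth muscle, fibroblast and TGF-beta response lists are lowest in replicate 2. The TGF-beta response list shares Acta2 and Tagln with the smooth muscle list and Col1a1 with the fibroblast list.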

How the data were processed

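Titles of the samples gave the groups and replicate numbers and name a knockout, whereas the series' design text says knockdown. The authors mapped reads to mm9 with STAR and counted exonic reads of RefSeq transcripts with HOMER on both strands together, so genes with overlapping exons share reads. Besides the overlaps named in the results, exons of Bmp4, Bmp5 and Bmp6 overlap those of Gm15217, Gm16662 and Txndc5 on the other strand. The same holds for Bmpr1a, Acvrl1 and Id4 with Gm17110, Gm16031 and A330033J07Rik. The deposited counts are unadjusted whole reads per transcript. The authors computed the deposited RPKM values in edgeR, using transcript length. Further deposited columns, not used here, hold the authors' own DESeq2 comparison: a mean signal over libraries, the log2 fold change with its standard error, the Wald score, and the p-value and its adjusted value. Versions of the authors' tools are not given in the sources used here. The 250-base promoter windows came from RefSeq and matched 33 of the 49 genes, and gene positions came from GENCODE vM1 on mm9.

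For each of 20701 symbols (31507 entries) the entry with the most reads was kept. edgeR 4.0.16 in R 4.3.3 (TMM, filterByExpr, quasi-likelihood F test, two-sided, no covariate) was fitted over all genes, with Benjamini-Hochberg adjustment over 12715 genes. CPM used the effective library sizes, and standard errors came from the coefficient and its F statistic. Promoter and ratio values are descriptions, and ratio intervals and the floor of 3 counts cover counting error only. With 2 against 2 libraries an exact permutation test of 1 gene cannot reach 0.05, so p-values rest on spread shared across genes. Alternatives were DESeq2 1.42.0 (also with the study's criteria, an absolute log2 fold change over 0.58 at an unadjusted p of 0.05), RLE factors, no filter, at least 10 counts in every library, all transcript entries, limma 3.58.1 voom with a variance for each group, a replicate block and leaving out each library. The genes with full statistics were those with an adjusted or unadjusted p under 0.05 or an absolute log2 fold change of at least 1, and of the other lists those called and up to 5 more by smallest p. Atoh8, Tbx2, Hey1, Thbs1, Tgfbi, Col1a1 and the single endothelial, blood and pluripotency markers were named after their values were seen. A gene of the list of other pathway genes is not reported here. The edgeR step was tested on simulated data. The genes and lists were chosen with earlier results of these data known. Tables and plots were made in Python 3.11.15 with matplotlib 3.10.9, pandas 2.3.3, scipy 1.17.1 and numpy 2.4.6.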

Additional observations from a re-analysis of the deposited data

How the results depend on the processing

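With all 4 libraries, every log2 fold change of the 43 tested genes kept its direction under every alternative in which the gene was tested. The counts of calls moved more. Of all genes, edgeR called 311, against 492 without a filter, 604 in DESeq2, 867 in limma voom with a variance for each group and 993 by the study's criteria in DESeq2, and between 27 and 6350 when 1 library was left out. Of the 43 pathway genes, 1 was called, against 2 without a filter, 2 in DESeq2, 6 in limma voom, 4 by the study's criteria and between 0 and 30 when 1 library was left out. Of the other pathway genes, 3 were called, against 5, 5 and 7 in the first 3 of these and between 0 and 27 with a library left out, and of the response genes 0 against 2, 5 and 7 and between 0 and 22. Without an Isl1_KO library the remaining one is assumed to vary like the control pair, whose spread was the smaller, which by construction gives more calls. The median log2 fold change ranged from -0.28 to -0.087 for the pathway genes, from -0.14 to -0.089 for the other pathway genes and from -0.20 to 0.025 for the response genes when 1 library was left out.

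A fit with the replicate number as a block called 454 of all genes, 2 of the pathway genes (Tgfb2 and Id2, adjusted p = 0.0353 for Id2), 4 of the other pathway genes and 3 of the response genes (Msx2, Gata2 and Col1a1). Of the 3 other pathway genes called without the block it called 2, Foxh1 and Nedd4l, while Ppm1a was lost (adjusted p = 0.0502) and Kcp and Ltbp1 were gained. Nothing in the labels pairs the numbers, and deviations of same-numbered libraries from their group means correlated at 0.0128 over 10763 genes. Among single genes the direction turned only when 1 library was left out, and then over these ranges of the log2 fold change, with the cause not tested: Bmp6 (-0.32 to 0.11), Bmp1 (-0.96 to 0.0078), Nodal (-0.50 to 0.95), Inhba (-0.86 to 0.050), Gdf1 (-0.30 to 0.17), Tgfb1 (-0.34 to 0.026), Tgfb3 (-0.36 to 0.23), Bmpr1a (-0.060 to 0.0041), Acvrl1 (-1.01 to 0.38), Tgfbr2 (-0.36 to 0.038), Lefty2 (-0.16 to 0.94), Nog (-0.067 to 0.40), Fst (-0.69 to 1.02), Bambi (-0.16 to 0.22), Smad3 (-0.23 to 8.0e-05) and Id3 (-0.15 to 0.10).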

Other observations

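Among the 33 pathway genes with a RefSeq promoter window, GGCGCC, the GC-rich letters bound by BMP Smads, occurred within 250 bases before the start of 10 genes (Bmpr2, Grem1, Smad9, Tgfbr1, Gdf1, Id2, Id4, Smad5, Bmpr1a and Chrd). That was 25.0% of their 40 windows, beside 9.59% of all 32851 windows, and base composition was not taken into account. The genes with and without these letters were not compared for their differences in expression. The choice to count them was made after the values of the genes were known.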
